A study of Mus musculus with 6 samples.

Results

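Expression of 9 genes of the ductal and simple epithelial program was examined in mouse liver: the keratins Krt7, Krt8, Krt18, Krt19 and Krt23, the adhesion molecules Epcam and Cdh1, the transcription factor Sox9 and the secreted glycoprotein Spp1. They were chosen by symbol, and all 9 were among the 20140 genes listed in the raw count table and among the 16370 that passed the filter on low counts. Bulk polyadenylated RNA had been sequenced from 6 whole livers collected on day 21, with 2 livers in each of 3 groups. The control livers came from sham mice, labelled with PBS in place of a cell line. The intra-C and intra-S livers were labelled with CT26, a mouse colon carcinoma line, and the study describes CT26 models in BALB/c mice with tumor cells placed in the cecum wall or injected into the spleen. The labels give the groups only as intra-C, intra-S and control, and do not say whether each liver came from a separate mouse, so that the tests measure the spread between these livers.

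Keratins are the intermediate filament proteins of epithelial cells and assemble as pairs of a type II and a type I chain. Hepatocytes are known to build their filaments from keratin 8 (type II) and keratin 18 (type I), whereas biliary epithelial cells also hold keratin 7 (type II) and keratin 19 (type I). Epcam, Sox9 and Spp1 are common markers of biliary and progenitor cells, Krt23 is a type I keratin known to be induced in stressed liver, and Cdh1 encodes E-cadherin, which joins epithelial cells to each other. Spp1, which encodes osteopontin, is also made by macrophages.

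Each liver had between 32838321 and 43368309 counts, and the limit that a count of 0 leaves, taken as 3 counts, corresponded to 0.0679 to 0.0928 CPM (counts relative to the library size, scaled by the TMM method). Albumin took 8.30 to 13.8% of the counts in every liver, as the labelled tissue would have it, and the 100 most abundant genes took 44.2 to 44.9% in sham and 54.9 to 59.7% in the tumor-bearing groups. The livers within the intra-S group stood further apart than those of the other groups, the chi-square statistic of their counts over its degrees of freedom being 337, against 73.1 for intra-C and 24.8 for sham. Values of the 9 genes that rest on 1 of the intra-S livers are therefore given with and without it. In bulk RNA, fewer cells of a type and less RNA per cell cannot be told apart.

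The promoters of the 3 keratins that carried most of the signal are shown first. Krt8 (chr15:101996711-102004342, minus strand) and Krt18 (chr15:102028216-102032026, plus strand) are neighbours whose 5′ ends face each other across 23873 bases, while Krt23 lies on another chromosome (chr11:99477973-99493120, minus strand). Of the others, Krt7 (chr15:101412403-101427806, plus) lies on the chromosome of Krt8, Krt19 (chr11:100140810-100145926, minus) and Sox9 (chr11:112782210-112787757, plus) on that of Krt23, and Epcam (chr17:87635979-87651127, plus) and Spp1 (chr5:104435111-104441053, plus) apart. All positions are in GRCm38.p6. The sequences are the 250 bases before the RefSeq start site, in the direction of the gene, at chr15:102004343-102004592 for Krt8, chr15:102027966-102028215 for Krt18 and chr11:99493121-99493370 for Krt23. Capitals mark the E-box letters CACCTG, searched on both strands.
Krt8: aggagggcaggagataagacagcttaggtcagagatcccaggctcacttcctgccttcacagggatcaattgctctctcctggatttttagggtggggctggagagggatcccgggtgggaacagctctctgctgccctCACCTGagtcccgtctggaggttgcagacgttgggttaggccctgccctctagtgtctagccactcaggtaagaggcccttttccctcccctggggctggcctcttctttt
Krt18: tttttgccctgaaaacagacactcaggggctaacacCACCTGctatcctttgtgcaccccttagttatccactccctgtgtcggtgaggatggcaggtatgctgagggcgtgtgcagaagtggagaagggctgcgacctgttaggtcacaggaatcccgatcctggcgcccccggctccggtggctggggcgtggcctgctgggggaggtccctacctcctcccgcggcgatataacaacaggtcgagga
Krt23: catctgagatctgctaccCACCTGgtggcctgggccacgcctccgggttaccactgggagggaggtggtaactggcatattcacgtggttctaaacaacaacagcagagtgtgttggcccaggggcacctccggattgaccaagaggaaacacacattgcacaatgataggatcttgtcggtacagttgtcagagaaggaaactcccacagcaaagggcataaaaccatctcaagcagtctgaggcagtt

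The first base of CACCTG lay 111 bases before the start of Krt8, 214 bases before that of Krt18 and 232 bases before that of Krt23. Among 32851 such windows of all genes, 17.2% held these letters on either strand, and the windows of Krt7 and Epcam and 1 of 2 windows of Spp1 held them as well. The other motifs searched on both strands were TATAAA (in 12.4% of all windows), GGGCGG (32.7%), CCAAT (33.8%), TTCNNNGAA (7.02%) and TGANTCA (6.75%), and none of these had a match in the 3 windows shown. Of the other members, Krt7 held GGGCGG at 4 places, Epcam held it at 1, and the same Spp1 window held TATAAA and CCAAT. Of the 9 genes, 6 had a window in the table, and Krt19, Sox9 and Cdh1 had none. A match describes letters in a window and is no measured binding site.

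The largest change among the 9 genes was the loss of Krt23, which was lower in both tumor-bearing groups than in sham. Krt18 and Sox9 were higher in intra-S than in sham. Krt8, Cdh1 and Spp1 had higher mean values in intra-S without passing the test, and the ductal markers Krt7, Krt19 and Epcam were low, at 0 to 38 counts per liver. In edgeR's quasi-likelihood test, with Benjamini-Hochberg adjustment over all 16370 genes, 1 of the 9 genes was lower in intra-C than in sham (Krt23; 2.38% of all tested genes were called lower) and 0 were higher (4.92% of all tested genes). In intra-S, 2 genes were higher (Krt18 and Sox9; 6.78% of all tested genes were called higher) and 1 was lower (Krt23; 3.95% of all). These shares are the background against which the counts of the 9 genes are to be read. Both comparisons use the same sham livers, and without either sham liver no gene of the whole table was called in them.

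**Figure D1:**
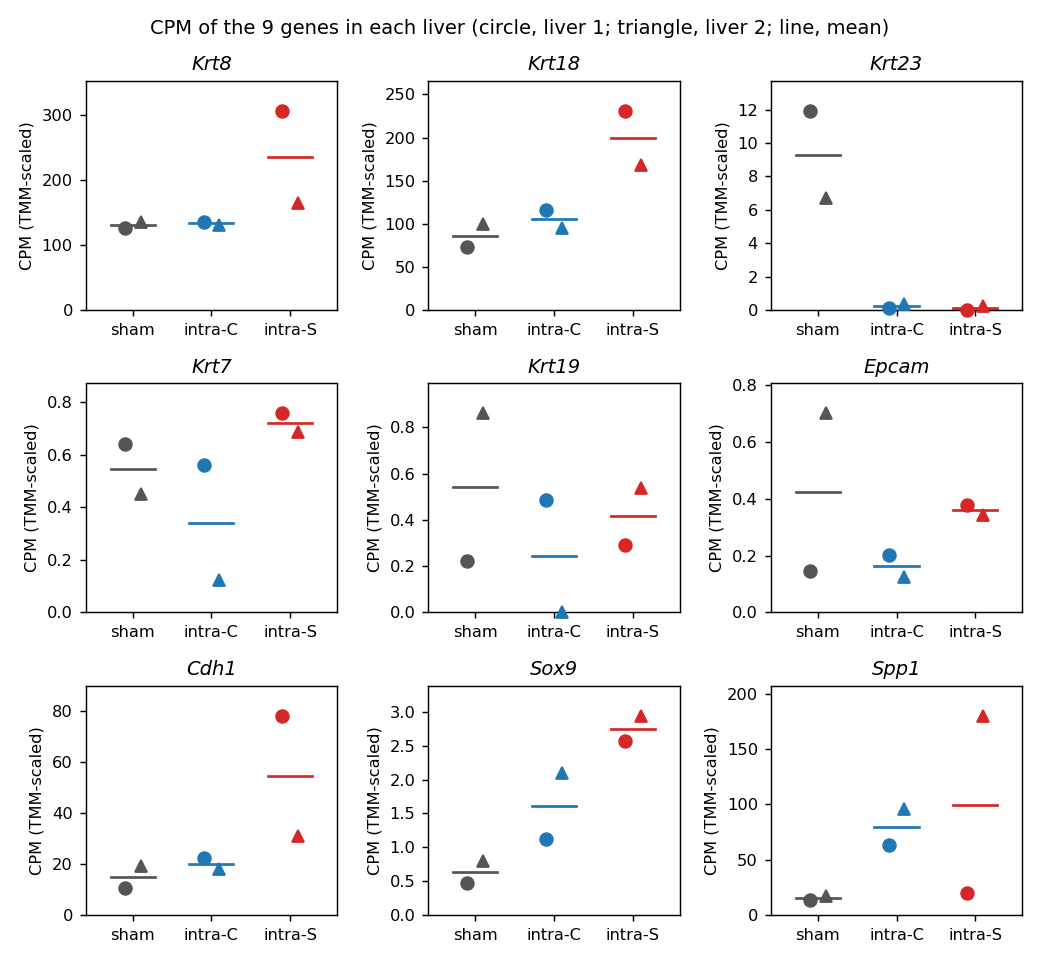
Expression of the 9 genes in each liver, as CPM scaled by TMM on a linear axis starting at 0, with circles for liver 1, triangles for liver 2 and a line at the mean of each group (n = 2). Krt23 falls from 11.9 and 6.70 CPM in sham to at most 0.371 CPM in the 4 intra-C and intra-S livers. Spp1 spreads from 19.6 to 180 CPM within intra-S.

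Among the type II keratins, Krt8 was abundant and Krt7 was low. Krt8 had 127 and 135 CPM in the sham livers, 136 and 131 CPM in intra-C, and 306 and 164 CPM in intra-S. The intra-C livers lay within or beside the sham range, whereas both intra-S livers lay above all others, one of them far above. The log2 fold change of Krt8 was 0.03 ± 0.31 (standard error) in intra-C, with an adjusted p of 0.962 in edgeR, and its sign turned when TMM was left out (-0.23), a scaling that moved the median of all genes by -0.26. In intra-S it was 0.85 ± 0.31 with an adjusted p of 0.128, which became 1.23 (0.00130) without intra-S liver 2 and 0.33 (0.178) without intra-S liver 1, the highest over 16 alternatives being 0.452. Krt8 overlaps an uncharacterized gene, Gm36026, on the opposite strand and has a named pseudogene, Krt8-ps, so that its counts may share reads with these.

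Krt7, the type II keratin of bile ducts, had 26 and 20 counts in sham, 22 and 4 in intra-C, and 26 and 28 in intra-S, or 0.124 to 0.758 CPM. Only intra-C liver 2 fell clearly below the others. Its log2 fold changes were -0.65 ± 0.80 in intra-C (adjusted p 0.648 by edgeR) and 0.40 ± 0.78 in intra-S (0.767). Without intra-C liver 2 the first of these was 0.06. Part of Krt7 is overlapped by the antisense gene Gm671, and whether the counting used strand is not given in the sources used here.

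Among the type I keratins, Krt18 rose in intra-S. The sham livers had 72.6 and 99.5 CPM, the intra-C livers 115 and 94.5 CPM, and the intra-S livers 231 and 168 CPM. Both intra-S livers exceeded all 4 others, and the sham and intra-C ranges overlapped. Krt18 was 2.32-fold higher in intra-S than in sham (log2 fold change 1.21 ± 0.27, adjusted p 0.0400 by edgeR). In intra-C the log2 fold change was 0.29 ± 0.27 (adjusted p 0.533). The call in intra-S held in 7 of 16 alternatives, with an adjusted p between 0.00158 and 0.293, and was kept with either intra-S liver left out (log2 fold change 0.97 without liver 1 and 1.42 without liver 2). It was lost without either sham liver (log2 fold change 1.01 without liver 1 and 1.45 without liver 2). Leaving out either intra-C liver also ended it (1.21 and 1.22). The call was lost without TMM (adjusted p 0.0588 by edgeR), with a replicate block (0.0593) and fitting the compared groups alone (0.0853). It was lost too on the log2(TPM + 1) (0.0553) and log2(TPM + 0.1) (0.0539) scales by limma.

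Krt23 was the member with the widest span. The counts were 484 and 296 in sham, 4 and 12 in intra-C, and 0 and 9 in intra-S, or 11.9 and 6.70, 0.102 and 0.371, and 0 and 0.221 CPM. The sham livers stood apart from the 4 intra-C and intra-S livers, all of which had at most 12 counts. The intra-C and intra-S groups overlapped each other. Krt23 was 39.9-fold lower in intra-C (log2 fold change -5.32 ± 0.98, adjusted p 0.0319 by edgeR) and 77.7-fold lower in intra-S (-6.28 ± 1.05, adjusted p 0.0201). The call was kept in 11 of 15 alternatives in each comparison. In intra-C it was lost without intra-C liver 1 (log2 fold change -4.63, adjusted p 0.202), without intra-C liver 2 (-6.45, 0.140), without sham liver 1 (-4.83, 0.219) and without sham liver 2 (-5.67, 0.165). In intra-S the log2 fold change was -5.37 (0.00478) without liver 1, and without liver 2 only the liver with 0 counts was left, which gives no measured fold. The intra-S call was lost without sham liver 1 (-5.82, 0.150), without sham liver 2 (-6.65, 0.108), without intra-C liver 2 (0.0504) and in a fit of the compared groups alone (0.0539). Its log2 fold change was negative in each of these fits, at most -3.44 on the log2(TPM + 1) scale.

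Krt19, the type I partner of Krt7 in bile ducts, had 9 and 38 counts in sham, 19 and 0 in intra-C, and 10 and 22 in intra-S. The groups overlapped in every comparison. The log2 fold changes were -1.12 ± 1.39 in intra-C (adjusted p 0.649 by edgeR) and -0.38 ± 1.35 in intra-S (0.878), and both turned positive without sham liver 2 (0.15 and 0.90). The livers of a group differed widely, so that no change larger than this spread was seen.

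The balance of the keratin pair was compared per gene length with the deposited TPM values. The summed TPM of the 5 keratins was 293 and 339 in sham, 303 and 286 in intra-C, and 592 and 401 in intra-S. Krt8 and Krt18 made up nearly all of it, and Krt23 took 5.91% and 2.87% in sham, 0.0415% and 0.171% in intra-C, and 0 and 0.0674% in intra-S. The ratio of Krt8 to Krt18 was 1.35 and 1.05 in sham, 0.911 and 1.08 in intra-C, and 1.03 and 0.759 in intra-S. The intra-C ratios overlapped those of both other groups, the sham and intra-S ratios did not overlap, and sham liver 1 and intra-S liver 2 lay farthest out.

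**Figure D2:**
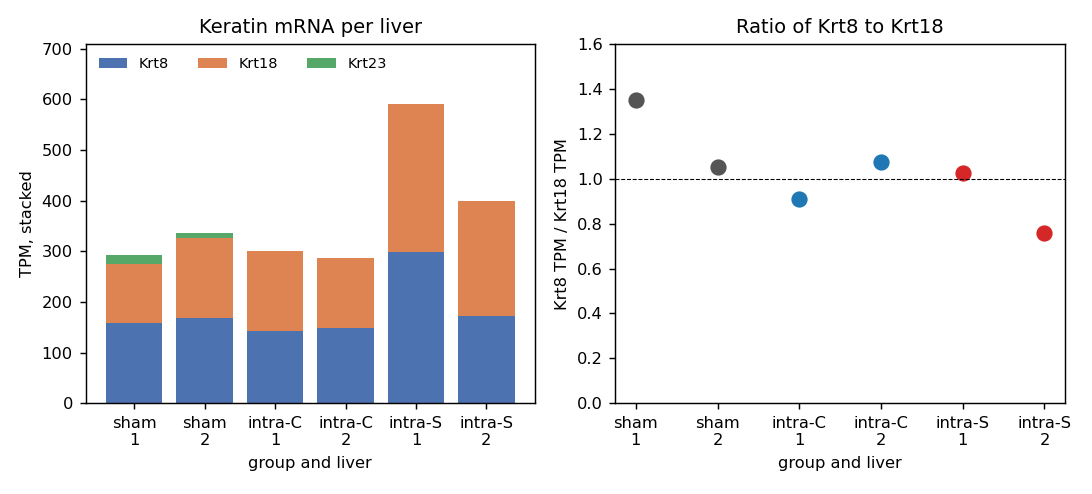
Left, stacked TPM of Krt8, Krt18 and Krt23 in each liver, on an axis from 0. Right, the ratio of Krt8 TPM to Krt18 TPM in each liver, with a dashed line at 1. The keratin sum is highest in the intra-S livers, Krt23 is visible only in sham, and the ratio runs from 0.759 to 1.35.

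Of the adhesion molecules, Cdh1 tracked the keratin pair in the intra-S livers and Epcam was low. Cdh1 had 10.5 and 19.4 CPM in sham, 22.4 and 17.9 CPM in intra-C, and 78.2 and 30.9 CPM in intra-S. Both intra-S livers were above all others, with liver 1 the highest, as for Krt8 and Krt18. The log2 fold change of Cdh1 in intra-S was 1.87 ± 0.49 with an adjusted p of 0.0612 in edgeR. It was 2.39 (0.00219) without intra-S liver 2 and 1.05 (0.0741) without intra-S liver 1, and DESeq2 called it (0.00309), the range over 16 alternatives being 0.00219 to 0.316. In intra-C it was 0.43 ± 0.48 (0.617). Epcam had 6 and 31 counts in sham, 8 and 4 in intra-C, and 13 and 14 in intra-S. Its log2 fold changes were -1.35 ± 0.95 in intra-C (adjusted p 0.409) and -0.24 ± 0.90 in intra-S (0.885), and both turned positive without sham liver 2 (0.15 and 1.27).

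Sox9, the transcription factor of the biliary lineage, had 0.468 and 0.792 CPM in sham, 1.12 and 2.10 CPM in intra-C, and 2.57 and 2.94 CPM in intra-S, from 19 to 120 counts. The 3 groups did not overlap, with both intra-C livers above sham and both intra-S livers above intra-C. Sox9 was 4.35-fold higher in intra-S than in sham (log2 fold change 2.12 ± 0.51, adjusted p 0.0491 by edgeR). In intra-C the log2 fold change was 1.34 ± 0.51 with an adjusted p of 0.154. The call in intra-S was kept in 8 of 16 alternatives, with an adjusted p between 0.00375 and 0.285. It held without either intra-S liver (log2 fold change 2.22 without liver 1 and 2.02 without liver 2). It was lost without either sham liver (1.80 and 2.55) and without either intra-C liver (2.12 and 2.13). The call was also lost without TMM (adjusted p 0.0727 by edgeR) and fitting the compared groups alone (0.0771). On the log2(TPM + 1) (0.0558) and log2(TPM + 0.1) (0.0637) scales limma did not call it.

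Spp1 had 13.7 and 16.7 CPM in sham, 63.1 and 96.2 CPM in intra-C, and 19.6 and 180 CPM in intra-S. Every intra-C and intra-S liver was above both sham livers, but intra-S liver 1 was close to sham and intra-S liver 2 was the highest of all. The log2 fold change was 2.39 ± 0.90 in intra-C (adjusted p 0.153 by edgeR) and 2.72 ± 0.91 in intra-S (0.106). The intra-C value was called once either intra-S liver was left out of the shared fit (adjusted p 0.000792 and 0.000950), in a fit of the compared groups alone (0.00136) and by DESeq2 (0.0185). The intra-S value was called by DESeq2 (0.00464), and it was 0.37 (0.339) without liver 2 and 3.57 (0.000451) without liver 1. Spp1 shares exonic bases with Gm42793 on the same strand, so that its counts may share reads with that gene. Over 16 alternatives the adjusted p ran up to 0.478 in intra-C and 0.393 in intra-S.

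**Figure D3:**
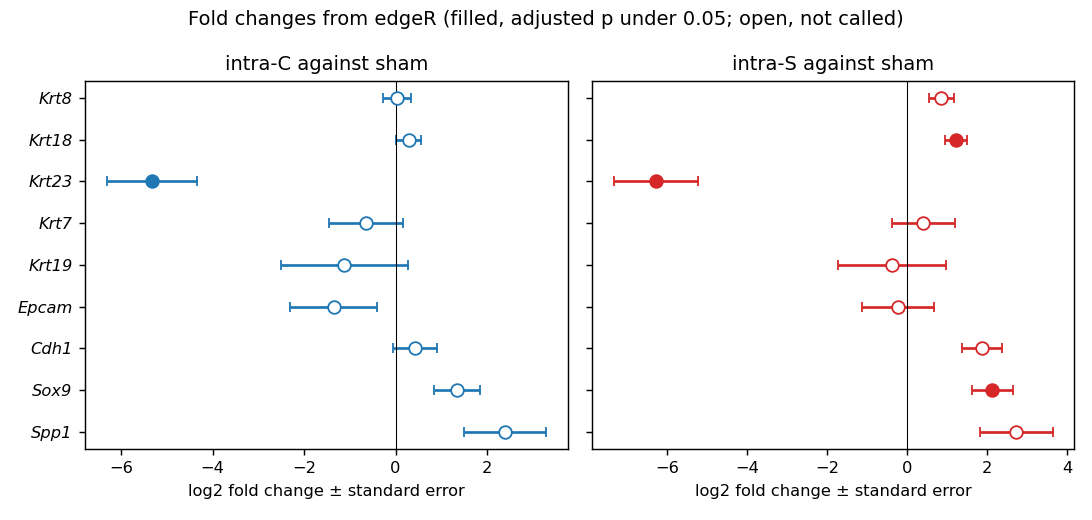
Log2 fold change with its standard error for the 9 genes in intra-C against sham (left) and intra-S against sham (right), from edgeR (n = 2 livers per group, with the same sham livers in both panels). Filled points passed an adjusted p of 0.05, which only Krt23 did in intra-C, and Krt18, Krt23 and Sox9 did in intra-S.

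In the direct comparison of intra-S with intra-C, 0 of the 9 genes and 0 of all 16370 tested genes were called by edgeR (0% of all), although before adjustment 1144 genes in the higher and 1049 in the lower direction had a p below 0.05, and DESeq2 called 506. The log2 difference was 0.92 ± 0.27 for Krt18 (adjusted p 0.300), 1.44 ± 0.49 for Cdh1 (0.327) and 0.82 ± 0.31 for Krt8 (0.352). The intra-S livers were above the intra-C livers for Krt7, Krt8, Krt18, Epcam, Cdh1 and Sox9, and the groups overlapped for Krt19, Krt23 and Spp1. The share of all tested genes separated in this way was not calculated, so this is a description only. Krt7 and Epcam rest on 4 to 28 counts in these livers. Without intra-S liver 2, 2884 of 17429 tested genes were called (16.5%), and 4 of the 9 genes were among them. Krt8 (1.19, adjusted p 0.00335 by edgeR), Krt18 (1.13, 0.0177) and Cdh1 (1.96, 0.00945) were then higher in intra-S, and the difference of Spp1 turned from 0.33 to -2.02 (adjusted p 0.00630).

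**Figure D4:**
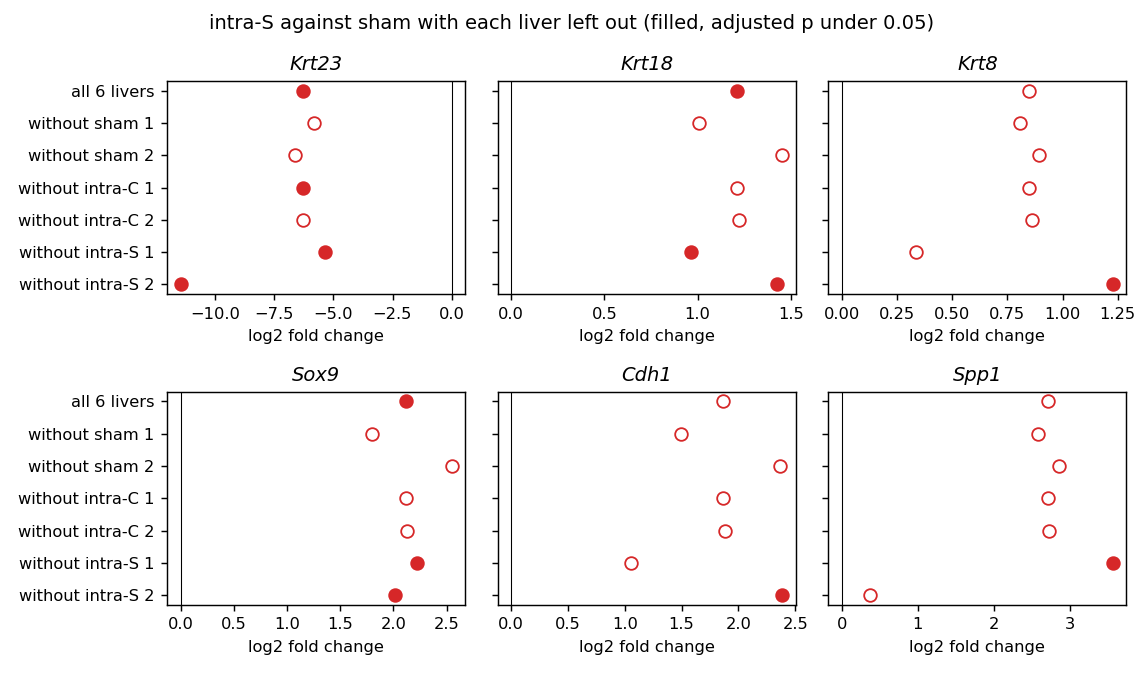
Log2 fold change in intra-S against sham for 6 of the 9 genes with all 6 livers and with each liver left out in turn, filled where the adjusted p from edgeR was under 0.05. Spp1 moves from 0.37 to 3.57 and Krt8 from 0.33 to 1.23 depending on which intra-S liver is left out, whereas Krt23 stays negative throughout (its value without intra-S liver 2 rests on a liver with 0 counts and is no measured fold).

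Levels were ordered per gene length within each group. In sham the mean TPM ran from Krt8 (163 ± 6.96, SD, n = 2) and Krt18 (138 ± 30.3), which overlapped, through Spp1 (20.6 ± 2.80), Krt23 (13.5 ± 5.38) and Cdh1 (7.59 ± 3.16) to Krt19, Krt7, Epcam and Sox9, all under 1 TPM on average and overlapping with their neighbours. Krt23 and Cdh1 also overlapped in sham. In intra-C, Krt18 and Krt8 overlapped at the top and Spp1 followed at 95.4 ± 32.3 TPM. There the mean of Krt23, 0.307 ± 0.257 TPM, was above that of Epcam alone, with which it overlapped. In intra-S, Krt23 was last at 0.135 ± 0.191 TPM, and Spp1 (113 ± 131) overlapped with both Krt8 and Cdh1.

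The genes whose pattern over the 6 livers was most like a member were found by Pearson's correlation of log2 CPM, given as a description only. For Krt23 these were Pmm2, Npepl1 and Nrep (r of 0.997, 0.997 and 0.996). Nrep, a neuronal regeneration related protein gene, had 77.5 and 51.6 CPM in sham against 1.28 to 5.37 CPM in the other livers. For Krt8 they were Pla2g12a, Riok1 and Phax, for Krt18 AI413582, Slc12a2 and Arpc5, and for Cdh1 Qsox2, Ffar4 and As3mt (r of 0.990 to 0.999). Several of these were highest in intra-S liver 1, for example Pla2g12a with 109 CPM against 11.9 to 23.4 CPM in the others. For Sox9 they were Kif11, a mitotic motor, Snx1 and Ptafr (0.995 to 0.997), and for Spp1 Dnajc18, the Fc receptor gene Fcgr1 and Tgfbi (0.993 to 0.995). Krt7, Krt19 and Epcam averaged under 1 CPM and were not compared in this way. High correlations were common over 6 livers. From 71 genes (for Spp1) to 360 genes (for Krt23) reached an r of 0.95 or more with a member.

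Other genes of the same systems were described by their counts, which are to be read against the same shares of all tested genes (4.92% higher and 2.38% lower in intra-C, 6.78% and 3.95% in intra-S). Of 8 further keratin genes listed, 2 were tested and 0 were called. Krt20, a keratin of intestinal epithelium, had 250 counts (6.13 CPM) in intra-S liver 2 and 0 in the other 5 livers, and did not pass the filter. Muc2, an intestinal mucin, had 86 counts in intra-S liver 1 and 0 to 2 in the others. Krt20 was thus not a feature of both intra-S livers, and no test was made of either gene.

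Of 19 tested keratin partners and other intermediate filament genes, 1 was higher in intra-C (Plec, which encodes the filament linker plectin, log2 fold change 1.22, adjusted p 0.0317 by edgeR) and 1 in intra-S (Vim, the mesenchymal filament vimentin, 3.15, adjusted p 0.0241, 2.02 without intra-S liver 2). The medians of this list were 0.32 and 0.30, against 0.01 and 0.04 for all tested genes. Of 27 tested junction genes, 3 were higher in intra-C (Afdn, Marveld3 and Cldn14, log2 fold changes 1.84, 1.82 and 2.04) and 1 was lower (Cldn3, -1.17), while 2 were higher in intra-S (Cldn14, 2.32, or 1.49 without intra-S liver 1, and Marveld3, 1.65), and the medians were -0.10 and -0.01. Cldn3 and Cldn14 encode tight junction claudins. Of 8 tested cadherin repressors and other cadherins, Cdh5, the endothelial cadherin, was higher in both comparisons (2.03 and 2.41), and Zeb2, a repressor of Cdh1, was higher in intra-S (1.12). None of these lists had a call in the direct comparison.

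Of 24 tested Notch and YAP pathway genes, which are known to act upstream of Sox9, Wwtr1 (encoding TAZ) was higher in both comparisons (log2 fold changes 1.02 and 1.36), and the Notch target Nrarp was higher in intra-S (2.66), a call lost without intra-S liver 2 (2.20, adjusted p 0.0600 by edgeR). The medians were 0.47 and 0.59. Of 9 receptor genes for osteopontin, 3 were higher in both comparisons, namely Cd44 (2.46 and 2.70), Itga9 (1.50 and 1.21) and Itgb3 (2.48 and 3.50), with medians of 0.52 and 0.54. In intra-S, Cd44 was 2.11 without liver 2 and Itgb3 was 2.57 without liver 1, both still called.

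Markers of the cells that could carry these transcripts moved as follows. Of 14 tested cholangiocyte markers, 3 were higher in intra-C and 4 in intra-S, with medians of 0.36 and -0.25, and their summed CPM was 97.4 and 107 in sham, 229 and 211 in intra-C, and 194 and 144 in intra-S. The called genes were Slc10a2, the bile acid transporter (4.69 and 3.04), Aqp1 (1.28 and 1.02), Bicc1 (2.35 and 2.10) and, in intra-S, Cd24a (4.24, or 2.73 without intra-S liver 1), and 0 of the list were lower in either comparison. The rise of the sum came mainly from Aqp1 and Slc10a2. Aqp1 had 36.3 and 37.8 CPM in sham, 96.1 and 83.6 in intra-C, and 71.9 and 78.6 in intra-S. Slc10a2 had 3.38 and 1.38, 62.3 and 60.5, and 24.5 and 14.5 CPM. Cd24a added 49.8 CPM in intra-S liver 1. With a median of -0.25 in intra-S, the sum does not describe the list as a whole. The part of these markers in the values of the 9 genes was not tested. Of 12 hepatocyte markers, Cyp3a11 was lower in intra-C, Cyp2e1 lower and Serpina1c higher in intra-S, and the sums ranged from 121362 to 129528 CPM in sham, 117722 to 163209 in intra-C and 144052 to 196962 in intra-S.

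Of 9 mesothelial markers, 0 were called, and their sum was 1.83 CPM in intra-C liver 2 against 8.65 to 17.2 CPM in the other 5. The same liver had the lowest Krt7, Krt19 and Epcam values, and the part of this list in those values was not tested. Of 3 tested intestinal and 2 tested exocrine pancreas markers, 0 were called. The sums were 65.4 and 77.6 CPM in sham against 17.4 to 49.1 CPM in the others for the intestinal list, of which Vil1, Muc2, Krt20 and Tff3 were at 0 in sham, and 4.63 to 26.3 CPM for the pancreas list. Fabp2 (34.4 and 50.6 CPM) and Lgals4 (28.9 and 25.2 CPM) made up most of the intestinal sum in sham.

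Beside Spp1, macrophage markers were higher in the intra-C and intra-S livers than in sham. Of 8 Kupffer cell markers, 7 were higher in intra-C and 6 in intra-S, and their summed CPM was 154 and 151 in sham, 760 and 940 in intra-C, and 414 and 862 in intra-S. Of 11 markers of monocytes and lipid-associated macrophages, 5 and 6 were higher, with sums of 50.6 and 77.2, 406 and 359, and 486 and 510 CPM. The Kupffer sum was lower in intra-S liver 1 than in the other intra-C and intra-S livers, as was Spp1. The monocyte sum was not. No marker of either list was at 0 in both sham livers, and their part in the Spp1 values was not tested.

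Beside Sox9, of 10 markers of dividing cells, 1 was higher in intra-C and 6 in intra-S, with sums of 19.4 and 10.7 CPM in sham, 34.9 and 40.0 in intra-C, and 94.0 and 80.7 in intra-S. All 10 neutrophil markers were higher in both comparisons, with sums of 2.51 and 3.67 CPM in sham, where Mpo, Elane and Camp were at 0, 279 and 629 in intra-C, and 1070 and 423 in intra-S. Of 11 stellate cell and fibroblast markers, 0 were higher in intra-C and 3 in intra-S (sums of 290 to 304, 362 to 367 and 532 to 578 CPM). Of 8 endothelial markers, 4 were higher in each (87.4 to 97.8, 267 to 301 and 221 to 399 CPM), and of 8 T and B cell markers 0 were called. The part of these cells in the values of the 9 genes was not tested.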

How the data were processed

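Bulk polyadenylated RNA of 6 mouse livers (2 per group, day 21) was analyzed. According to the submitters' processing notes, the authors aligned reads to mm10 with HISAT2 2.1.0 and counted them with featureCounts from Subread 2.0.6. They deposited raw counts per gene, and TPM values calculated from the counts and gene lengths. The gene annotation and strand setting are not given in the sources used here. Each liver had 32838321 to 43368309 counts.

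Counts were tested with edgeR 4.0.16 (quasi-likelihood test, TMM, filterByExpr with a count minimum of 10) in R 4.3.3, in 1 fit of 3 groups, with Benjamini-Hochberg adjustment over 16370 genes and calls at an adjusted p under 0.05. The test was checked on simulated data. The standard errors of edgeR's log2 fold changes were calculated as the size of the change over the square root of its F statistic. No exact permutation of 2 against 2 livers can go below a p of 0.333. The alternatives were DESeq2 1.42.0, other filters, scalings and spreads, a replicate block, limma 3.58.1 on log2(TPM + 1) and log2(TPM + 0.1), and leaving out each liver. Where this leaves 1 liver in a group, that liver is assumed to vary like the other groups.

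The 9 genes and the gene lists were chosen with earlier results of these data known. All 9 are named. From each list at most 5 called genes per comparison are named, by smallest p, and otherwise the 2 most abundant, and not all of the latter are printed. For each member averaging at least 1 CPM, the 3 most correlated genes are named. Krt20 and Muc2 are described beside this rule, chosen after their values were seen. Promoter windows came from RefSeq (GRCm38.p6), and their orientation was checked against GENCODE transcripts.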

Additional observations from a re-analysis of the deposited data

Results flagged for a closer look

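Epcam, the epithelial cell adhesion molecule, was the only one of the 9 genes for which, on the log2 CPM scale, both livers of one tumor-bearing group lay below the sham mean and both livers of the other lay above it. The intra-C livers differed from the sham mean by -0.60 and -1.14 and the intra-S livers by 0.15 and 0.03. On the linear scale the direction was not opposite, since the intra-S livers (0.379 and 0.343 CPM) were below the sham mean of 0.425 CPM and edgeR gave a log2 fold change of -0.24 in intra-S and -1.35 in intra-C. The log2 difference between intra-S and intra-C was 1.11, with an adjusted p of 0.627 in edgeR, and the opposite directions were not shown by a test. The values rest on 4 to 31 counts per liver, and the sham livers had 6 and 31.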

How the results depend on the processing

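Of the values of the 9 genes under the alternatives, 124 of 139 kept their direction and side of the threshold in intra-C against sham, 111 of 140 in intra-S against sham and 130 of 139 in the direct comparison. Since most of the 9 genes were not called in the main fit, a kept side mostly means staying uncalled. The intra-S call was kept in 7 of 16 alternatives for Krt18 and 8 of 16 for Sox9. For intra-C against sham, members called moved from 1 to 2 with DESeq2, 0 with at least 10 counts in every liver (Krt23 was then not tested), 2 in a fit of the compared groups alone, and 0 to 2 leaving out a liver. Genes called moved from 1195 to 2711, to 4771 in the fit of the compared groups, and to 0 to 4658 leaving out a liver. For intra-S against sham, members called moved from 3 to 5 with DESeq2, 0 in the fit of the compared groups, 1 without TMM, 1 on either TPM scale, and 0 to 5 leaving out a liver. Genes called moved from 1756 to 3400, to 392, and to 0 to 5693 leaving out a liver. In the direct comparison, 506 genes were called by DESeq2, and leaving out a liver gave 0 to 2884 genes and 0 to 4 members, against 0. The cause was not tested.

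Without TMM the split of higher and lower calls was 569 and 801 in intra-C (main 806 and 389) and 838 and 1115 in intra-S (main 1110 and 646), and it was 497 and 896, and 685 and 1553 on log2(TPM + 1), 589 and 890, and 804 and 1476 on log2(TPM + 0.1). The median of all genes then moved by -0.26 and -0.27 without TMM. Directions turned for Krt8 in intra-C without TMM (-0.23) and on both TPM scales (-0.16), and leaving out a liver (-0.0091 to 0.0791). Leaving out a liver also turned Krt7 (-2.11 to 0.0604), Krt19 (-7.39 to 0.15) and Epcam (-2.06 to 0.15) in intra-C, Krt19 (-1.03 to 0.90) and Epcam (-0.95 to 1.27) in intra-S, and Krt19 (-0.23 to 7.01), Krt23 (-6.14 to 0.17) and Spp1 (-2.02 to 1.18) in the direct comparison. The values of -7.39, 7.01 and -6.14 rest on a liver at 0 counts and are no measured folds. Spp1 in the direct comparison was also -0.48 and -0.50 on the TPM scales.

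Same-numbered livers did not deviate together across genes (correlations of -0.03 to 0.08). The labels give them only a number, and whether they share a batch was not tested. A replicate block left 1 member called in intra-C and 2 in intra-S, Krt18 having an adjusted p of 0.0593, called 932 and 1507 genes, and turned Spp1 in the direct comparison to -0.14. Krt7, Krt19 and Epcam had 0 to 38 counts per liver, and the standard errors of their log2 fold changes against sham were 0.78 to 1.39.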
